A study of Mus musculus with 98 samples.

Results

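At a chromosomal break cut by a zinc finger nuclease (ZFN), some broken ends carried a 5' overhang although both of their strands had been shortened far past the cut. These far 5' overhangs are the end structures described here. A structure was counted among them when it had 2 or more reads, when its overhang was a 5' overhang, and when its 3'-ending strand stopped at position 54 or further inside. They were thus chosen by measured values, the read count, the kind of overhang and the position, and not by the share of reads or the genotype. Overhang length entered only through the position. An end whose 5'-ending strand stopped before 54 needed an overhang long enough to reach it. The rule found 930 distinct structures of the 2139 listed in the ZFN tables. Of these, 762 of 1631 structures were in the table of Lig4-/- 53BP1-/- cells (line C) and 402 of 1187 in the table of Lig4-/- cells (line B).

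A ZFN joins DNA-binding zinc fingers to the nuclease domain of FokI, which cuts the strands at staggered places and leaves a short 5' overhang. In non-homologous end joining such an end is sealed by DNA ligase IV (gene Lig4), and without this ligase it remains unjoined and exposed to nucleases. Resection is the loss of the 5'-ending strand, which leaves a 3' single-stranded tail. 53BP1 is a chromatin-bound protein of the DNA damage response known for holding resection back. A 5' overhang far inside is therefore an end whose 5'-ending strand was shortened and whose 3'-ending strand was shortened further still.

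Both groups were Abelson-transformed pre-B cell lines of the mouse that were held in G1 and lacked DNA ligase IV. Line C lacked 53BP1 as well, and each genotype had 1 line at the ZFN break. Ends were read by hairpin capture: a single-stranded DNA ligase closes an end into a hairpin, and bisulfite treatment, PCR and paired-end sequencing then show where each strand stopped. Each table pooled 3 libraries without separating them, so no spread between libraries or lines could be computed and no test between the genotypes was possible at this break. Line C was sequenced in run 7 with the number 12 after ZF in its titles, and line B in run 8 with the number 11. Genotype, line, run and ZF number cannot be told apart. The labels do not place the cut in the genome, and the tables hold no sequence, so structures are given by their table positions.

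Positions increase with distance into the chromosome. The 4-nt 5' overhang known for FokI, with its 5'-ending strand at 33, was the origin set for this break. Read depth was 556034 in line C and 623350 in line B, counted over structures with 2 or more reads. Intervals are exact Clopper-Pearson 95% intervals, which cover counting error only, because PCR reads are not independent molecules.

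Far 5' overhangs held 57.0% of reads in Lig4-/- 53BP1-/- line C (95% interval 56.9 to 57.2) and 5.13% in Lig4-/- line B (5.07 to 5.18). The difference was 51.9 percentage points, an 11.1-fold higher share in line C. The other far ends were also higher in line C, by smaller factors. Far blunt ends held 6.94% of reads in line C and 0.815% in line B, an 8.51-fold difference. Far 3' overhangs held 17.2% in line C and 8.67% in line B, a 1.99-fold difference. Ends near the cut, with the 3'-ending strand below position 54, held 18.8% in line C and 85.4% in line B. With each structure counted once, far 5' overhangs made up 46.7% of the structures of line C (44.3 to 49.2) and 33.9% of those of line B (31.2 to 36.6).

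Among far ends alone, 5' overhangs held 70.2% of reads in line C (70.1 to 70.4) and 35.1% in line B (34.8 to 35.4). In line B most far reads were thus blunt ends or 3' overhangs, and in line C most were 5' overhangs. Counted once, 56.7% of the far structures of line C and 49.8% of those of line B were 5' overhangs, a difference of 6.84 points in place of 35.1. Near the cut the order of the lines was the same, with 5' overhangs in 88.4% of near reads in line C and 53.9% in line B.

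**Figure D1:**
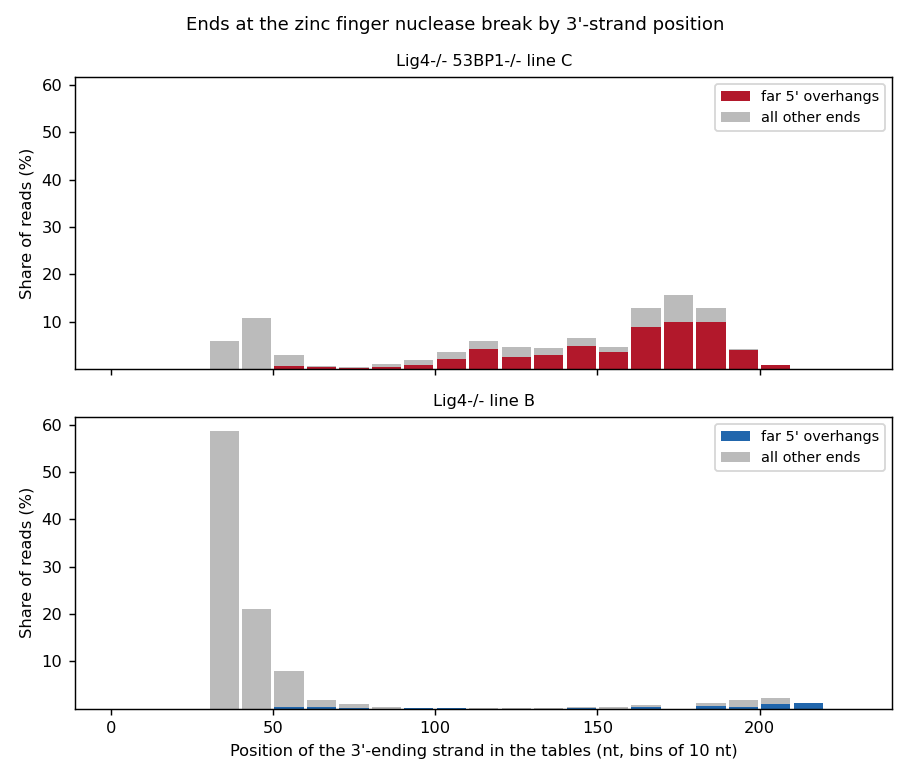
Share of all reads (%) by the position of the 3'-ending strand in bins of 10 nt, for Lig4-/- 53BP1-/- line C (top) and Lig4-/- line B (bottom), with far 5' overhangs in colour and all other ends in grey. Far 5' overhangs total 57.0% in line C, mostly at 100 to 199, and 5.13% in line B, where the tall grey bars lie near the cut.

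The far 5' overhangs of the lines did not lie at the same depth. The median 3'-strand position over reads was 166 in line C (quartiles 138 and 181) and 195 in line B (quartiles 108 and 211). In line C positions 150 to 199 held 63.8% of far 5' overhang reads, positions 100 to 149 held 29.9%, positions 54 to 99 held 4.74% and positions of 200 or more held 1.51%. In line B the same zones held 27.9%, 4.14%, 23.3% and 44.6%. Line C was thus concentrated at positions 100 to 199, while line B had reads at 54 to 99 and from position 150 outward, and few at 100 to 149.

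No far 5' overhang of line C had its 5'-ending strand beyond position 190, against 76 structures with 47.4% of the far 5' overhang reads in line B. Reads of any structure beyond that position were few in line C, at 0.628% of all reads, against 5.61% in line B. The ends of line C at 3'-strand positions of 200 or more were therefore all long overhangs reaching back from there, with a median of 41 nt, against 3 nt in line B. Both ZFN tables reached the same highest 3'-strand position of 221, and ends resected past the amplified window are not measured. Without structures at 200 or more, a setting added after seeing the data, far 5' overhangs held 56.7% of reads in line C and 2.94% in line B.

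By reads, the share of 5' overhangs among far ends was higher in line C in each zone between 54 and 199. It was 56.9% in line C and 19.9% in line B at 3'-strand positions 54 to 99, 67.0% and 22.4% at 100 to 149, and 72.6% and 34.6% at 150 to 199. When ends were instead placed by their 5'-ending strand, the values were 63.98% in line C and 11.9% in line B at 54 to 99, 71.7% and 21.3% at 100 to 149, and 69.3% and 53.4% at 150 to 199. At 5'-strand positions of 200 or more, where line C had 510 reads in all, 5' overhangs held 0% in line C and 38.9% in line B. With structures counted once on the 5'-strand scale, the order turned at 150 to 199, with 52.3% in line C and 57.2% in line B, and the lines were nearly level at 100 to 149, with 61.7% and 60.8%. By reads, in line B the share between 54 and 199 thus increased with distance over these zones on both scales. In line C the increase from the middle to the outer zone was seen on the 3'-strand scale and not on the 5'-strand scale.

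Nearly all of these ends were shortened on both strands. The 5'-ending strand, too, stopped at 54 or further inside in 98.9% of far 5' overhang reads of line C and 95.6% of those of line B. Ends whose 5'-ending strand was still at position 37 or lower, close to the ZFN cut, were rare: 2 structures with 5 reads in line C, and 1 structure with 2 reads in line B. A long single-stranded 5' tail reaching from the cut into the chromosome was therefore almost not seen in either table.

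The most abundant far 5' overhang of line C was a 5-nt overhang with its strands ending at 167 and 172 (5'-ending strand first), which had 6799 reads in line C, 1.22% of all reads, and 20 in line B. Next came a 5-nt overhang at 174 and 179, with 5869 reads in line C and 7 in line B, and a 5-nt overhang at 173 and 178, with 4884 reads in line C and 7 in line B. All 3 lay close together and had the same length. A 3-nt overhang at 189 and 192 had 4832 reads in line C and 10 in line B. An 8-nt overhang at 166 and 174 had 4748 reads in line C and 2 in line B. A 2-nt overhang at 183 and 185 had 4592 reads in line C and 15 in line B. Each of these 6 leading structures of line C held at least 0.826% of line C reads and at most 0.00321% of line B reads.

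The leading structures of line B were others. A 3-nt overhang at 208 and 211 had 7004 reads in line B, 1.12% of its reads, and was not listed in line C. A 3-nt overhang at 204 and 207 with 3017 line B reads, a 5-nt overhang at 198 and 203 with 2472 and a 1-nt overhang at 198 and 199 with 1103 were not listed in line C either. These 4 lay beyond position 190, where line C listed no far 5' overhang. A 3-nt overhang at 186 and 189 had 60 reads in line C and 1466 in line B. A 2-nt overhang at 164 and 166 was abundant in both lines, with 2328 reads in line C, 0.419%, and 1035 in line B, 0.166%. It was the only one of the 12 leading structures with more than 100 reads in each table.

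Structures recurred in families that shared the place where 1 strand stopped. In line C far 5' overhangs used 147 positions of the 5'-ending strand, and position 167 carried the most reads, 4.80% of far 5' overhang reads in 11 structures. Its 5-nt overhang held 44.6% of them and its 4-nt overhang 17.9%. Position 184 held 4.61% in 11 structures, and there a 5-nt overhang with 23.5% and a 3-nt overhang with 22.9% were nearly level. Of 3'-strand positions, 179 led in line C with 3.90% of far 5' overhang reads, spread over 12 structures. In line B 2 of the 3 leading families were nearly single structures. Position 208 held 22.1% of far 5' overhang reads, of which its 3-nt overhang made up 99.4%, and position 204 held 9.52%, of which a 3-nt overhang made up 99.2%. Between them in rank, position 198 held 11.3%, divided into 68.7% for a 5-nt and 30.7% for a 1-nt overhang.

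Reads were spread over many structures in line C and piled on few in line B. The most abundant far 5' overhang held 2.14% of the class in line C and 21.9% in line B, and the top 10 held 14.8% in line C and 61.2% in line B. It took 63 structures to reach 50% of the class in line C and 6 in line B. The inverse Simpson index, the number of equally abundant structures that would give the same concentration, was 169 in line C and 13.5 in line B. The class had 317137 reads in line C and 31952 in line B. Counts of structures at a fixed number of reads depend on this depth and do not by themselves measure concentration. Structures with 100 or more reads numbered 356 in line C and 44 in line B. Structures with fewer than 10 reads were 313 of 762 in line C and 320 of 402 in line B, so most structures of line B rest on few reads. Without the 10 most abundant far 5' overhangs of each table, the class held 53.1% of reads in line C and 2.05% in line B.

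**Figure D2:**
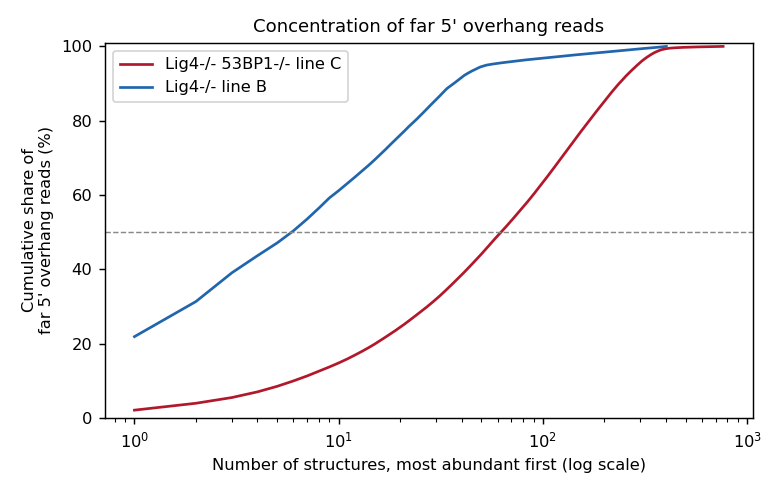
Cumulative share of far 5' overhang reads (%) against the number of structures, most abundant first on a log axis, for Lig4-/- 53BP1-/- line C (red) and Lig4-/- line B (blue). The dashed line marks 50%, which line C reaches with 63 structures and line B with 6.

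Far 5' overhangs were short in both lines. The median length over reads was 4 nt in line C (quartiles 3 and 6) and 3 nt in line B (quartiles 2 and 5). Overhangs of 1 to 4 nt held 51.8% of the class in line C and 73.9% in line B, and those of 5 to 9 nt held 39.5% in line C and 14.2% in line B. Overhangs of 10 to 19 nt held 5.85% in line C and 7.52% in line B, and those of 20 nt or more held 2.81% and 4.37%. By reads, line C was therefore higher in the class of 5 to 9 nt and lower in the other classes. With each structure counted once, the median was 7 nt in line C and 5 nt in line B. Counted so, the order turned for 10 to 19 nt, with 19.3% in line C and 10.7% in line B. It stayed the same for the other classes.

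Single lengths differed in how evenly they were used. In line C, lengths of 2, 3 and 5 nt held 15.2%, 16.7% and 16.6% of the class, and 4 nt held 12.2%. In line B, 3 nt held 41.6% and 2 nt held 22.1%, and over 50% of the 3-nt reads came from the structure at 208 and 211. A length of 6 nt held 8.45% of the class in line C and 0.182% in line B, where the most abundant such structure had 17 reads. Lengths of 8 and 9 nt held 5.42% and 6.06% in line C, against 0.329% and 0.147% in line B.

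**Figure D3:**
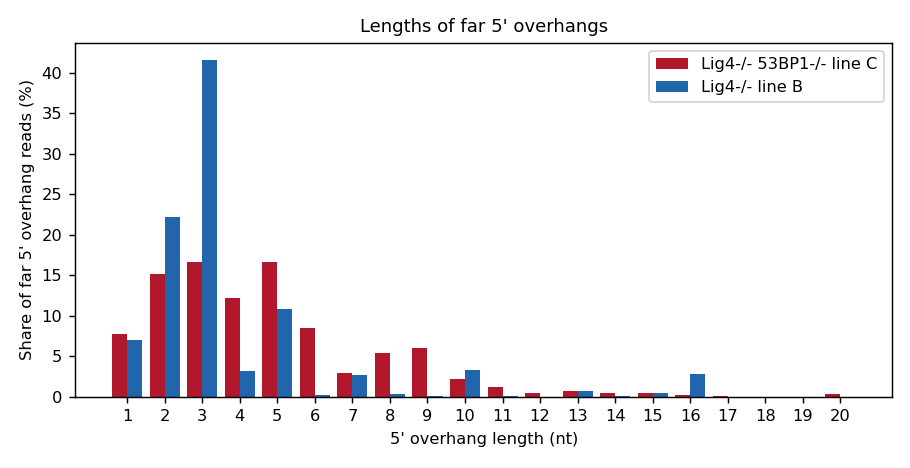
Share of far 5' overhang reads (%) by overhang length from 1 to 20 nt, for Lig4-/- 53BP1-/- line C (red, left bar of each pair) and Lig4-/- line B (blue, right bar). Line B peaks at 3 nt with 41.6%, while lengths of 1 to 6 nt each hold between 7.74% and 16.7% in line C.

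The far 3' overhangs of the same tables had the opposite order of medians, 2 nt in line C and 4 nt in line B. Those of 10 nt or more held 14.5% of far 3' overhang reads in line C and 29.9% in line B, the same order as among far 5' overhangs. The 5' overhangs near the cut had a median of 4 nt in line C and 2 nt in line B, and there lengths of 5 to 9 nt held 39.3% in line C and 2.93% in line B. The larger part of 5 to 9 nt in line C was thus found in 5' overhangs near the cut as well as far from it.

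A few overhangs were long and still abundant. In line C a 106-nt overhang at 84 and 190 had 585 reads in line C and 3 in line B, and a 107-nt overhang from the same 5'-strand position had 122 reads in line C and was not listed in line B. An 83-nt overhang at 125 and 208 had 564 reads in line C and was not listed in line B. In line B a 124-nt overhang at 71 and 195 had 3 reads in line C and 519 in line B, and a 112-nt overhang at 51 and 163 had 2 reads in line C and 394 in line B. A 31-nt overhang at 178 and 209 had 253 reads in line B and was not listed in line C. Each of these 6 structures had at most 3 reads in the other line. Among all overhangs of 10 nt or more, 4 structures, singled out after their values were seen, had 100 or more reads in each line. A 10-nt overhang at 184 and 194 had 1507 reads in line C and 315 in line B, and a 10-nt overhang at 173 and 183 had 493 and 629. A 15-nt overhang at 171 and 186 had 639 reads in line C and 157 in line B, and a 13-nt overhang at 47 and 60 had 206 and 103.

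Of the 930 structures, 234 were listed in both tables, which is 30.7% of the far 5' overhangs of line C and 58.2% of those of line B. Of all 2139 ZFN structures, 679 were listed in both, 41.6% of those of line C and 57.2% of those of line B. The overlap was thus near the general level in line B and below it in line C. The 234 shared far 5' overhangs held 69.4% of far 5' overhang reads in line C and 45.3% in line B. Their median count was 610 reads in line C and 3 in line B. Only 36 of the 234 had 10 or more reads in each table, and 19 had 100 or more in each. Near the cut, by comparison, 135 of 234 shared structures had 10 or more reads in each table. Among far blunt ends and far 3' overhangs 15 of 211 did, so low counts of shared structures were not particular to far 5' overhangs.

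Most shared structures were abundant in line C and barely listed in line B. A group of 143 had 100 or more reads in line C and fewer than 10 in line B, in all 174098 reads in line C and 540 in line B. Of all 679 shared structures, 236 had such counts. Among them were 81 of the 211 shared far blunt ends and far 3' overhangs and 12 of the 234 shared near ends. How often a structure of line C was listed in line B increased with its reads in line C. Counting also structures with 1 read in line B, 85.6% of the 97 structures with 1000 or more line C reads were listed there, 61.0% of those with at least 100 but under 1000, 33.3% of those with 10 to 99 and 27.8% of those with 2 to 9. Whether these low counts come from line B cells or from carry-over between libraries was not tested. They make up 1.69% of the far 5' overhang reads of line B. With shared structures under 10 reads dropped from the table in which they were lower, far 5' overhangs held 57.1% of reads in line C and 5.03% in line B.

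**Figure D4:**
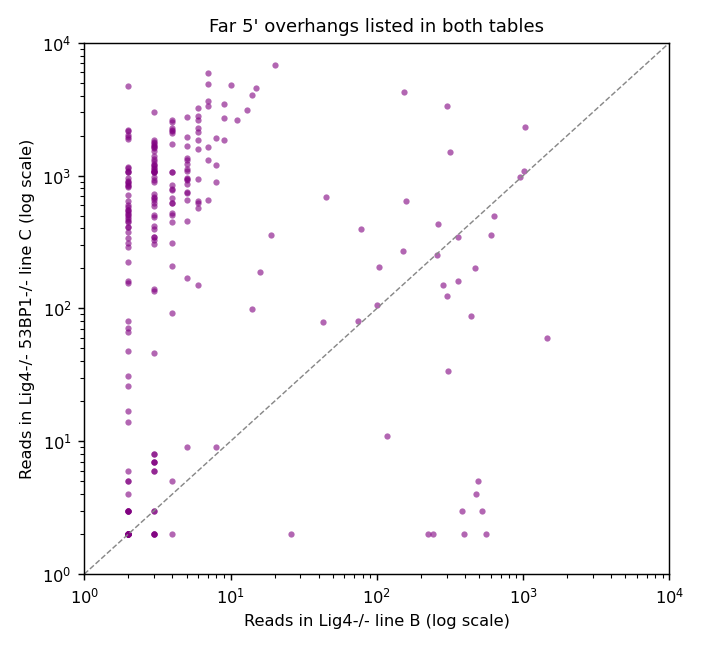
Reads in Lig4-/- 53BP1-/- line C (vertical, log scale) against reads in Lig4-/- line B (horizontal, log scale) for the 234 far 5' overhangs listed in both tables, with the dashed line marking equal counts. Most points stand at the upper left, with fewer than 10 reads in line B, and 19 structures have 100 reads or more in each table.

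Structures were also compared 1 by 1 by the ratio of their share in line C over that in line B. A structure was called at a 4-fold difference if it was listed in both tables, or if it was listed in 1 table with 10 or more reads. By this rule 428 of 531 far 5' overhangs were higher in line C and 50 lower, against 56.5% higher and 29.2% lower of all structures compared. Of the 531, however, 297 were listed in 1 table only, and that fixed their call, 260 as higher and 37 as lower, so these counts are a description. Among structures listed in both tables, 168 of 234 far 5' overhangs were higher in line C and 13 lower, against 41.5% and 30.9% of all such structures. With 10 or more reads in both tables, 15 of 36 far 5' overhangs were higher in line C (41.7%) and 4 lower (11.1%), against 17.2% and 44.1% of all such structures. Near ends with 10 or more reads in both tables were higher in line C in 10.4% and lower in 51.9%. Of the 15 far blunt ends and far 3' overhangs with such counts, 3 were higher in line C and 8 lower. The share of calls thus depended strongly on how many reads were asked for, while far 5' overhangs had more higher than lower calls under each rule. Shares in a table sum to a fixed total, so the shares of near and far ends are not independent of each other. How far this bears on the calls was not tested.

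The highest ratios belonged to structures with 2 reads in line B, so their sizes are known only roughly. The 8-nt overhang at 166 and 174 was 2661-fold higher in line C (counting interval 736 to 21982). A 4-nt overhang at 183 and 187, with 2195 reads in line C and 2 in line B, was 1230.4-fold higher (340.2 to 10166). A 1-nt overhang at 171 and 172 had 2177 reads in line C and 2 in line B, and a 10-nt overhang at 167 and 177 had 2035 and 2. In the other direction, a 3-nt overhang at 105 and 108 had 2 reads in line C and 557 in line B, a 248-fold higher share in line B (68.4 to 2056). A 1-nt overhang at 58 and 59 had 3 reads in line C and 382 in line B, 114-fold higher in line B (38.6 to 553). The 124-nt and 112-nt overhangs of line B completed that list, at 154-fold (52.5 to 751) and 176-fold (48.3 to 1456).

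At the edge of the rule 5' overhangs were present on both sides. Just inside it, 5' overhangs with the 3'-ending strand at 54 held 0.125% of reads in line C and 0.113% in line B. Just outside, those at 53 held 0.376% in line C and 0.319% in line B. The leading structure at 54 in both lines was a 2-nt overhang from 52, with 344 reads in line C and 361 in line B. The leading structures at 53 were a 3-nt overhang in line C, with 926 reads in line C and 412 in line B, and a 1-nt overhang in line B, with 457 reads in line C and 1569 in line B. At positions 53 and 54 the levels of the lines were thus close, while 5' overhangs at the neighbouring positions were higher in line C. At 52 they held 0.546% in line C and 0.218% in line B, and at 55 they held 0.0982% in line C and 0.0245% in line B.

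A matching class was measured at the other breaks of the study, with the 3'-ending strand 21 nt or more inside the origin of each break. At the ZFN break the origin is the 5'-ending strand of a 4-nt 5' overhang, whose 3'-ending strand stops further inside. Counted from that 3'-ending strand, the distance asked for at the ZFN break is thus shorter than 21 nt. The libraries of RAG breaks were labelled 48 h and came from run 4, except Lig4-/- 53BP1-/- line C at the substrate. That group came from run 6 without a time label. Cas9 libraries came from run 8, and neither they nor the ZFN libraries have a time label. Comparisons of the RAG breaks with the ZFN break therefore cannot tell break from run. At Jk1, the first J segment of the immunoglobulin kappa locus, which is cut by the RAG recombinase, far 5' overhangs held 59.4% of reads in Lig4-/- 53BP1-/- line B, against 9.82% in Lig4-/- line A and 17.2% in Lig4-/- line B. At the chromosomal recombination substrate, also cut by RAG, they held 58.5% and 39.2% in Lig4-/- 53BP1-/- lines B and C, against 10.7% and 14.3% in Lig4-/- lines A and B. The means there were 48.8% ± 13.6 and 12.5% ± 2.53 (SD, n = 2 lines each), with an exact two-sided permutation p = 0.33, the smallest that 2 lines against 2 can give. At the Cas9 break, measured only in Lig4-/- cells, they held 7.84% in line A and 5.72% in line B. The level of line C at the ZFN break therefore lay within the range of the 53BP1-deficient lines at RAG breaks, and that of line B was the lowest of the 7 Lig4-/- tables.

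Among 53BP1-deficient tables, long far 5' overhangs held a smaller share of reads at the ZFN break than at the RAG breaks. At the ZFN break overhangs of 10 nt or more held 8.66% of far 5' overhang reads in 53BP1-deficient line C (8.57 to 8.76) and 11.9% in Lig4-/- line B (11.5 to 12.2). With each structure counted once the order turned, with 37.7% in line C and 30.3% in line B. In line B 122 structures with 3799 reads had such lengths, and the most abundant had 871, 629, 519, 394, 315 and 253 reads. The first, a 16-nt overhang at 197 and 213, was not listed in line C. Its 5'-ending strand lay beyond position 190, where line C listed no far 5' overhang. At Jk1 overhangs of 10 nt or more held 40.9% in 53BP1-deficient line B, against 17.4% and 22.9% in Lig4-/- lines A and B. At the substrate they held 37.4% and 66.2% in 53BP1-deficient lines B and C, against 7.47% and 19.3% in Lig4-/- lines A and B. The Lig4-/- value at the ZFN break lay within the range of the Lig4-/- tables at RAG breaks. Line C thus had mainly long far 5' overhangs at the substrate, with a median of 11 nt, and mainly short ones at the ZFN break, with a median of 4 nt. The Lig4-/- lines differed strongly among themselves at the Cas9 break, with 60.5% in line A and 20.2% in line B.

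**Figure D5:**
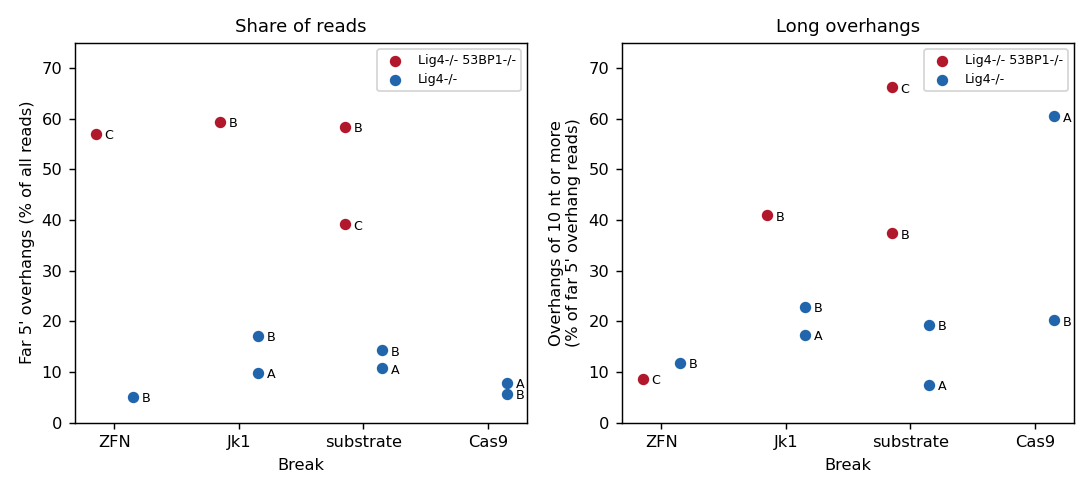
Far 5' overhangs as a share of all reads (left, %) and overhangs of 10 nt or more as a share of far 5' overhang reads (right, %) at the ZFN, Jk1, substrate and Cas9 breaks, 1 point per table with its line letter, Lig4-/- 53BP1-/- in red and Lig4-/- in blue. On the left the 53BP1-deficient points lie between 39.2% and 59.4%, and on the right line C of the ZFN break lies at 8.66%, below the other 53BP1-deficient points.

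Some far 5' overhangs had the same position and length as structures of the Cas9 tables, whose positions also reach 221. The labels do not say whether the ZFN and Cas9 cuts lie in the same locus. In Cas9 Lig4-/- line A 80 of the 762 structures of ZFN line C were listed (10.5%), as were 49 of the 402 of ZFN line B (12.2%). In Cas9 Lig4-/- line B the numbers were 67 of 762 and 44 of 402. The overlap over all ZFN structures was not computed, so these shares cannot be called high or low, and nothing is drawn from them about the locus.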

How the data were processed

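Ends captured as hairpins were sequenced from genomic DNA of Abelson-transformed mouse pre-B cells. The authors deposited, for each group, 1 list of distinct ends with their raw read counts beside a position (column ced) and a signed overhang. Aligner, read filters and genome build: not given in the sources used here. What the columns mean was read from the values. In the KpnI control, which has a known 4-nt 3' overhang, the main structure had position 127 and overhang 4 and held 99.2% of reads, so negative values were read as 5' overhangs, and subtracting the overhang from ced gave where the 3'-ending strand stopped. The table of ZFN line B also listed 617 structures with 1 read, which were left out of the main shares, and that of line C listed none.

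Samples were grouped by genotype, line and break from the labels. The 12 tables used cover the ZFN, Cas9, Jk1 and substrate breaks of Lig4-/- and Lig4-/- 53BP1-/- lines and the KpnI control. Shares, exact Clopper-Pearson 95% intervals, read-weighted medians and ratios were computed with Python 3.11.15, numpy 2.4.6, pandas 2.3.3 and scipy 1.17.1, and figures drawn with matplotlib 3.10.9. Counting intervals of ratios came from the exact binomial interval of the reads of 1 structure over both tables. The calculation was tested on simulated data. The structures and classes were chosen with earlier results of these data known. Named structures are, per table, the 6 with the highest share, the 3 longest with 100 or more reads and those at the edge of the rule, and the 4 largest ratios in each direction among structures listed in both tables with 100 or more reads in 1. Origins of the breaks were positions 33 (ZFN), 37 (Cas9) and 2 (RAG), set after seeing the data. Alternatives changed the fewest reads, the position, the blunt ends, the weighting, the fold and the most abundant structures.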

Additional observations from a re-analysis of the deposited data

Results flagged for a closer look

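The share of overhangs of 10 nt or more among far 5' overhang reads differed in direction between breaks. At the ZFN break it was 8.66% in Lig4-/- 53BP1-/- line C and 11.9% in Lig4-/- line B, a difference of -3.23 percentage points. At Jk1 each 53BP1-deficient against Lig4-/- pair of tables differed the other way, by at least 18.0 points (40.9% against 22.9% in the nearest pair), and at the substrate by at least 18.1 points (37.4% against 19.3%). This difference between the breaks was not tested. With each structure counted once, the ZFN difference was 7.32 points. The RAG differences are shares of reads and were not computed with structures counted once, so these are unlike measures. By reads, the line B value at the ZFN break leaned on few structures, the most abundant with 871 of 3799 reads.

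The structures with 1 read in the table of ZFN Lig4-/- line B were left out of the main shares of reads. They were used for how often line C structures were listed in line B, and in an alternative that counted every listed structure. Of 617 such structures, 272 had a 5' overhang and a 3'-strand position of 54 or more, which is 44.1% (95% interval 40.1 to 48.1). Among the line B structures kept in the main shares, far 5' overhangs made up 33.9%, with each structure counted once. Of the 272 with 1 read, 125 were far 5' overhangs of line C, with a median of 180 reads in line C. The matching overlap with line C was not computed for the rest of the 617. Whether 125 of 272 is high or low therefore cannot be said.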

How the results depend on the processing

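The share of reads in far 5' overhangs was higher in line C under each alternative. Against a difference of 51.9 points (line C minus line B), it was 52.1 points with structures of 10 or more reads, 51.1 without the most abundant structure, 51.01 without the 10 most abundant members, 55.96 and 51.6 with the far line at 44 and 64, 47.9 with 1-nt overhangs called blunt and 51.5 with both strands at 54 or more. With every listed structure counted, including those with 1 read, the difference was 51.87 points, and the line B share was 5.16%. Settings added after seeing the data gave 52.1 with shared structures under 10 reads dropped from the lower table and 53.7 without positions of 200 or more. For the share of distinct structures, 12.9 points became 33.5 with 10 or more reads (50.3% in line C, 16.8% in line B) and 24.8 with low shared structures dropped. For 5' overhangs among far ends, 35.1 points became 6.84 with structures counted once, 49.4 without the 10 most abundant members and 32.2 with 1-nt overhangs called blunt, the last added after seeing the data. For overhangs of 10 nt or more, -3.23 points turned to 7.32 with structures counted once (37.7% in line C, 30.3% in line B), and was -8.37 without the 10 most abundant members and -2.86 with 10 or more reads. The cause of this reversal was not tested. The median length differed by 1 nt, and by 2 nt with structures counted once. Of the calls at a 4-fold difference, 428 higher and 50 lower became 15 and 4 of 36 with 10 or more reads in both tables, and 168 and 13 of 234 with structures listed in both (added after seeing the data). Both alternatives drop the 297 structures listed in 1 table only, each of which had been called. No paired analysis was possible because each table pools its libraries, and for the same reason no library could be left out in turn. A structure at 10 reads in line B is 0.0016% of its reads, so depth limits what can be said of the 320 structures below that.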
